A study of Mus musculus with 40 samples.

Results

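The neuregulins and their ErbB receptors were examined in the brain of Df(16)A/+ mice. The members are the ligand genes Nrg1, Nrg2 and Nrg3 and the receptor genes Erbb2, Erbb3 and Erbb4, and every probe set that the array annotation assigns to them was taken. These are 6 genes with 10 probe sets, of 45037 probe sets on the array that are not controls. Nrg1 has 1 probe set, Nrg2 has 3, Nrg3 has 2, Erbb2 has 1, Erbb3 has 2 and Erbb4 has 1. Each probe set was treated on its own, because signals of different probe sets are not on a common scale.

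Df(16)A/+ mice are heterozygous for an engineered deletion that models the human 22q11 microdeletion, and the controls were wild-type littermates. All animals were C57BL/6 males, 8 weeks old and untreated. Total RNA of the prefrontal cortex (PFC) and of the hippocampus (HPC) was hybridized to Affymetrix Mouse430_2 arrays, with 10 arrays in each of the 4 groups and 40 arrays in all. The series design describes 10 mice of each genotype for both regions, and no label ties a PFC sample to an HPC sample. The deletion is present in every cell of the animal, and the tissue is a mixture of all its cell types.

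Neuregulins are growth factors with an EGF-like domain, mostly made as membrane-anchored precursors that proteases release. NRG1 and NRG2 bind ERBB3 and ERBB4, while NRG3 binds ERBB4. ERBB2 has no known ligand and serves as the partner of the other receptors, and ERBB3 has little kinase activity of its own. In the forebrain, Erbb4 is best known in GABAergic interneurons, where its signal shapes inhibitory synapses, and Erbb3 is best known in the oligodendrocyte lineage.

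Signals below are log2 values from GCRMA, and differences are Df(16)A/+ minus wild type in log2 units with the standard error (SE) of the fit. The test was limma's, for probe sets with a signal above 4 in 10 or more of the compared arrays. A difference was called when its p, adjusted by Benjamini-Hochberg over all probe sets tested, was under 0.05. Genes of the deleted interval, which check the genotype labels, were called lower in Df(16)A/+ for 19 of 19 tested genes in the PFC and 18 of 19 in the HPC. Set against the wild-type mean, their average in the PFC was -1.24 to -1.06 on Df(16)A/+ arrays and -0.10 to 0.10 on wild-type ones. Region markers were compared by rank within the array: of 11 cortical markers 9 had a higher rank within the array in wild-type PFC, and of 9 hippocampal markers 7 had a higher rank in wild-type HPC. Arrays were hybridized in 5 runs, and genotype and run were unevenly mixed. Of the HPC arrays, 9 wild-type and 2 Df(16)A/+ were in run 2, the other 8 Df(16)A/+ were in run 3, and 1 wild-type was in run 1. Of the PFC arrays, 3 wild-type and 1 Df(16)A/+ were in run 3, 7 wild-type and 5 Df(16)A/+ in run 4, and 4 Df(16)A/+ in run 5. Chip lots were uneven as well. In the PFC all 10 Df(16)A/+ arrays and 4 wild-type arrays were of lot 1, and 6 wild-type arrays were of lot 2. In the HPC 9 wild-type and 7 Df(16)A/+ arrays were of lot 1. The rest there were 1 wild-type array of lot 5, 2 Df(16)A/+ arrays of lot 3 and 1 of lot 4.

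Of the member genes tested, only Erbb3 was called, in the hippocampus, where its signal in Df(16)A/+ mice was 73.5% of wild type. This call was not kept when the hybridization run was a block. Of the Df(16)A/+ HPC arrays, 8 were in a run without wild-type HPC arrays, so genotype and run could not be told apart for them. No neuregulin was called in either region, and no member was called in the prefrontal cortex. In the PFC 5 of the 10 member probe sets passed the filter on low values, namely those of Nrg1, Erbb4 and 1 of Erbb3 and both of Nrg3. None of these 5 was called by limma, and none had an unadjusted p under 0.05. Over all tested PFC probe sets 18.5% were called, 4000 of 21653, with 5.94% higher and 12.5% lower. In the HPC 3 member probe sets passed, both of Nrg3 and 1 of Erbb3. Of these 3, Erbb3 was called, lower in Df(16)A/+, where 6.47% of all tested HPC probe sets were called, 5.19% higher and 1.28% lower.

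**Figure D1:**
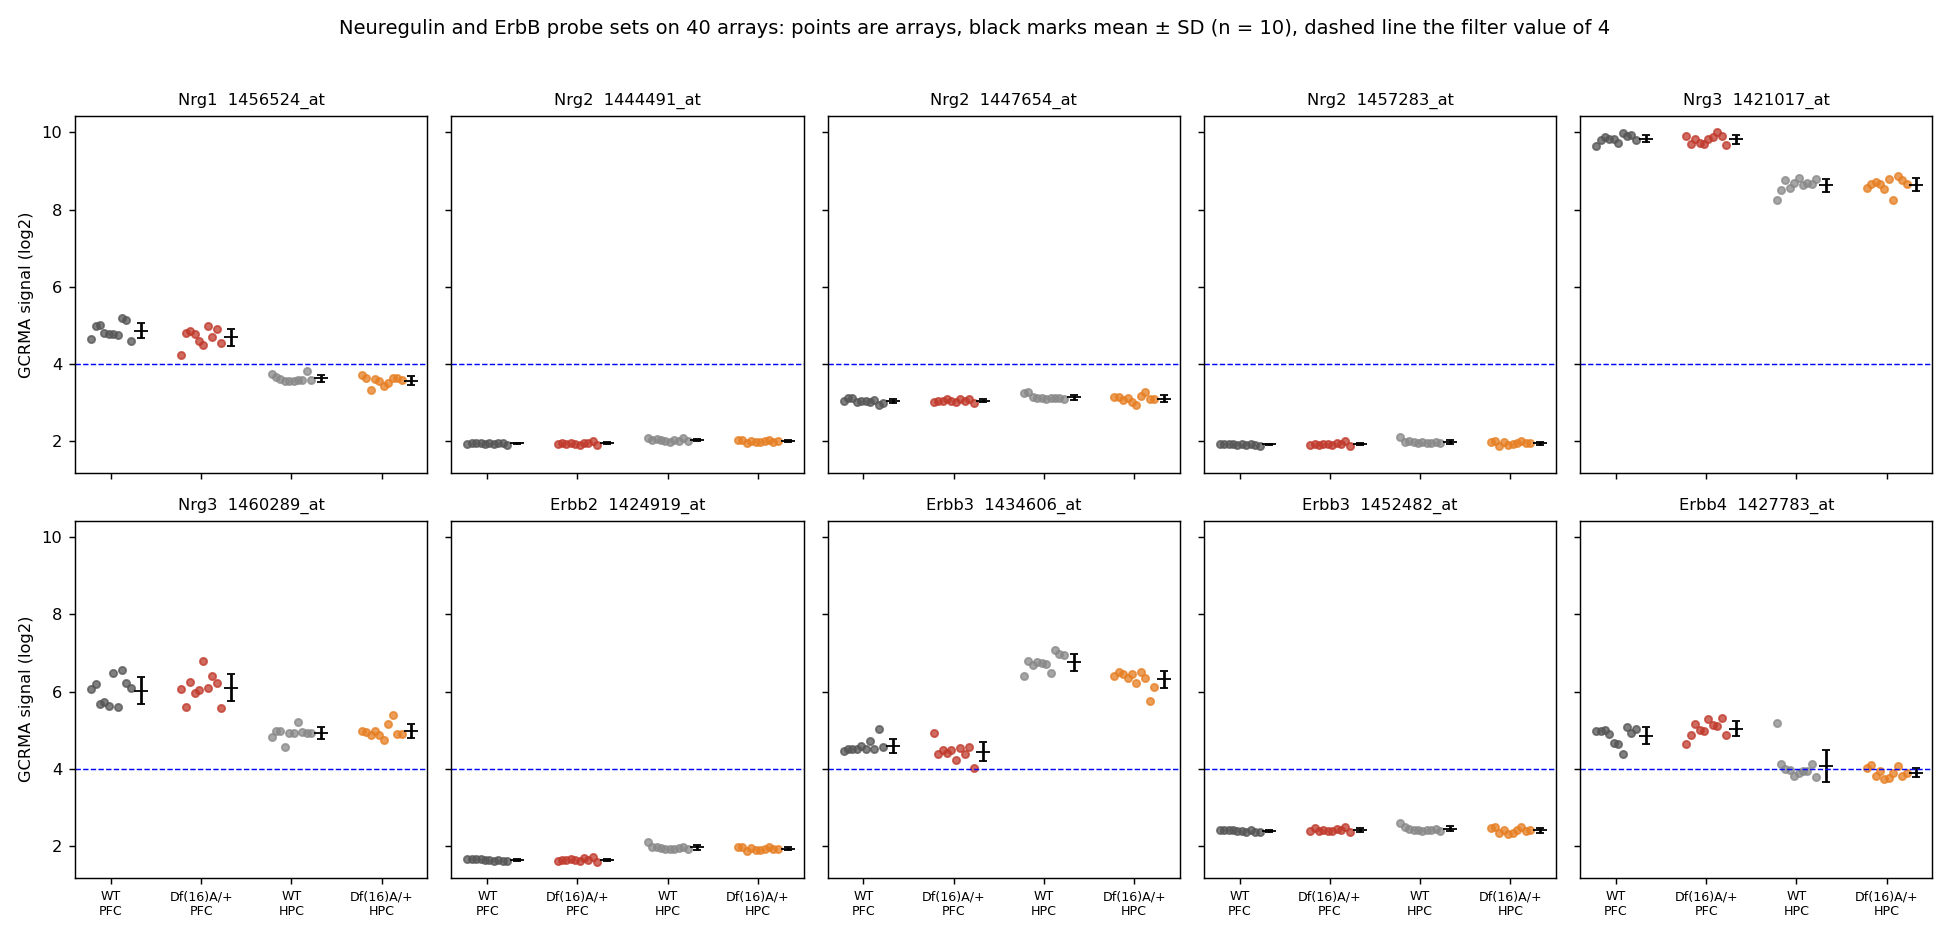
GCRMA signal (log2) of each of the 10 member probe sets on the 40 arrays, by genotype and region. Points are arrays, black marks are mean ± SD (n = 10 arrays), and the dashed line is the filter value of 4. The Erbb3 probe set 1434606_at is lower in Df(16)A/+ than in wild-type HPC, and the Nrg2 and Erbb2 probe sets and the second Erbb3 probe set lie under the dashed line in every group.

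Among the ligands, Nrg1 encodes the neuregulin with the widest known roles, from myelination to synapse formation. Its probe set 1456524_at had a signal of 4.60 at the lowest, 4.79 at the median and 5.19 at the highest in wild-type PFC. In Df(16)A/+ PFC the lowest, median and highest signals were 4.23, 4.75 and 4.98. The groups overlapped, with 8 of 10 Df(16)A/+ arrays below the wild-type mean. The difference was -0.17 ± 0.09 (SE, n = 10 against 10), with a 95% interval from -0.36 to 0.01, which missed the threshold (limma adjusted p = 0.18). In run 4 the mean was 4.86 over 7 wild-type arrays and 4.72 over 5 Df(16)A/+ arrays. The 6 wild-type PFC arrays of chip lot 2 were all in run 4 and had a mean of 4.91. Within lot 1 the mean was 4.81 over 4 wild-type and 4.69 over 10 Df(16)A/+ arrays. In the HPC the probe set was below 4 on every array, from 3.56 to 3.82 in wild type and from 3.32 to 3.71 in Df(16)A/+, and it was not tested. No Nrg1 change could therefore be measured in the hippocampus with this probe set.

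Nrg2, a close relative of Nrg1, gave no measurable signal. Its probe sets 1444491_at and 1457283_at had group means between 1.92 and 2.04 in all 4 groups. Its probe set 1447654_at had group means between 3.04 and 3.15. None of the 3 rose above 4 on any of the 40 arrays, so no statement on genotype was possible for Nrg2.

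Nrg3 encodes a neuregulin made mainly by neurons, and its probe set 1421017_at was well above the filter on all 40 arrays. In the PFC its lowest, median and highest signals were 9.66, 9.84 and 10.00 in wild type. They were 9.68, 9.83 and 10.01 in Df(16)A/+. The groups lay on top of each other, and the difference was -0.02 ± 0.05 (SE), with a 95% interval from -0.12 to 0.08 (limma adjusted p = 0.79). In the HPC the lowest, median and highest signals were 8.24, 8.67 and 8.82 in wild type. The Df(16)A/+ values were 8.26, 8.67 and 8.87. There the difference was 0.01 ± 0.07 (SE), with an interval from -0.14 to 0.17 (limma adjusted p = 0.92). Both 95% intervals of this probe set lay within 0.17 of no change.

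The second Nrg3 probe set, 1460289_at, was designed against the same transcript record and varied more between PFC arrays. Its PFC mean was 6.03 ± 0.35 (SD, n = 10) in wild type and 6.10 ± 0.36 in Df(16)A/+, a difference of 0.08 ± 0.15 (SE) with an interval from -0.23 to 0.39 (limma adjusted p = 0.76). Its HPC mean was 4.93 ± 0.16 in wild type and 4.98 ± 0.18 in Df(16)A/+, a difference of 0.05 ± 0.07 (SE) with an interval from -0.10 to 0.21 (limma adjusted p = 0.69). Both probe sets of Nrg3 thus gave a difference that missed the threshold in both regions. Their signals hardly moved together from array to array: over 20 arrays, as deviations from the group means, Pearson's r was 0.22 and Spearman's rho 0.31 in the PFC and 0.11 and 0.11 in the HPC. These relations did not hold up in a permutation test (adjusted p for r of 0.54 and 0.77 over 6 relations). Without the 2 arrays farthest from the median, r was 0.11 in the PFC and -0.21 in the HPC. Within runs r was 0.04 in run 4 of the PFC, 0.26 in run 2 of the HPC and -0.04 in run 3 of the HPC.

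Among the receptors, Erbb2 encodes the partner shared by the other ErbB proteins. Its probe set 1424919_at had group means of 1.64 and 1.65 in the PFC and 1.97 and 1.94 in the HPC, and it stayed below 4 on all 40 arrays. The Erbb3 probe set 1452482_at was likewise below 4 throughout, with group means between 2.40 and 2.45. Neither was tested, so results on Erbb3 rest on its other probe set alone.

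That Erbb3 probe set, 1434606_at, had a lowest, median and highest signal of 6.40, 6.75 and 7.09 in wild-type HPC. In Df(16)A/+ HPC the values were 5.77, 6.38 and 6.52. All 10 Df(16)A/+ arrays were below the wild-type mean and 5 of them were below every wild-type array, while the groups still overlapped. Group means were 6.76 ± 0.21 (SD, n = 10) and 6.32 ± 0.23. The difference was -0.44 ± 0.09 (SE), with a 95% interval from -0.64 to -0.25 (limma adjusted p = 0.0091). On the linear scale the Df(16)A/+ signal was 73.5% of wild type, with an interval from 64.1% to 84.3%. The call held when any of the 20 HPC arrays was left out, with differences from -0.48 to -0.38.

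Hybridization run moved with genotype in this comparison. The 9 wild-type arrays of run 2 had a mean Erbb3 signal of 6.73 and ranged from 6.40 to 7.09, and the wild-type array of run 1 had 6.98. The 2 Df(16)A/+ arrays of run 2 had 6.40 and 6.51, and the 8 of run 3 had a mean of 6.28 and ranged from 5.77 to 6.52. With the run as a block, the difference was -0.28 ± 0.16 (SE) and was no longer called (limma adjusted p = 0.91). Only 33 of the HPC probe sets of the whole array were called in that fit. Within run 2 alone the difference was also -0.28 (adjusted p = 0.59). Arrays of chip lot 1 alone gave -0.49 (adjusted p = 0.030). How much of the Erbb3 difference goes with the run could be measured only through the 2 Df(16)A/+ arrays of run 2.

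**Figure D2:**
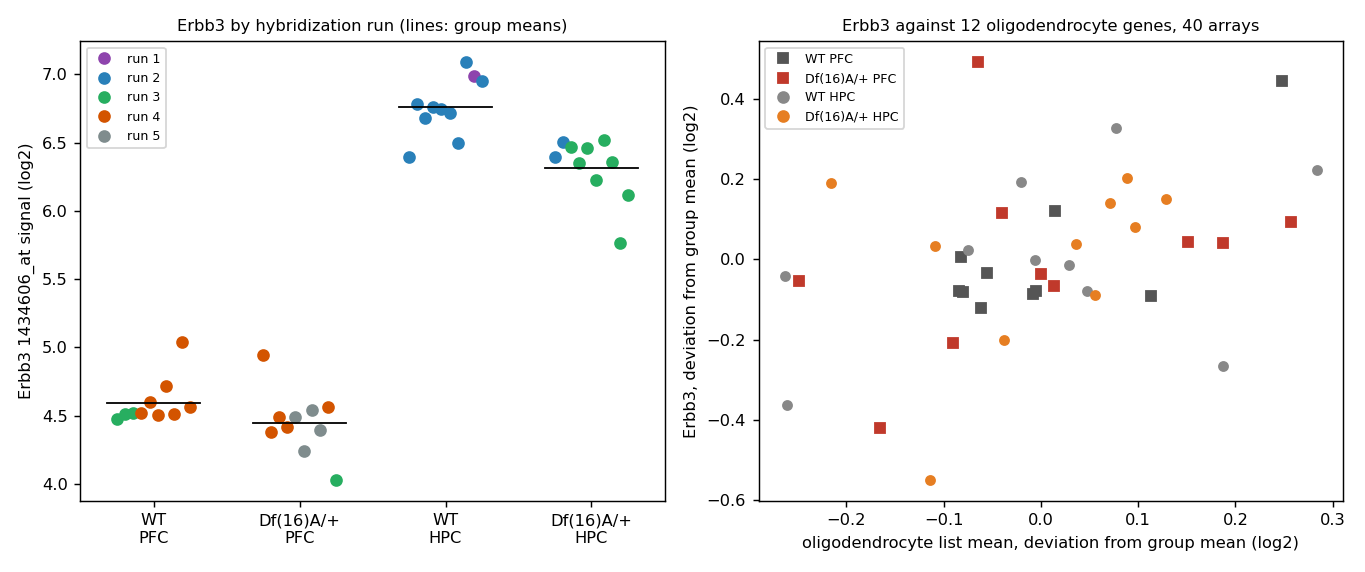
Left, the Erbb3 1434606_at signal (log2) of each array by group, coloured by hybridization run, with lines at the group means: in the HPC the 8 Df(16)A/+ arrays of run 3 and the 2 of run 2 lie at or below 6.52. Right, the deviation of each array's Erbb3 signal from its group mean against the deviation of the mean of 12 oligodendrocyte genes, both in log2 units, for the 40 arrays.

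In the PFC the same probe set was close to the filter value. Its lowest, median and highest signals were 4.48, 4.52 and 5.04 in wild type and 4.03, 4.45 and 4.94 in Df(16)A/+. Of the Df(16)A/+ arrays, 9 of 10 were below the wild-type mean and 5 were below every wild-type array. The difference was -0.15 ± 0.09 (SE), with an interval from -0.33 to 0.04, and it missed the threshold (limma adjusted p = 0.25). Leaving out 1 array at a time gave differences from -0.20 (adjusted p = 0.060) to -0.10 (adjusted p = 0.43), the latter without wild-type replicate 9, whose signal of 5.04 stood apart from the rest of its group.

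In RNA of whole tissue, fewer cells of a type and less RNA per cell cannot be told apart, and Erbb3 is best known in the oligodendrocyte lineage. Of 12 tested genes of mature oligodendrocytes, 1 was called lower in the HPC and none higher, where 1.55% of all tested genes were called lower. This was Opalin, a myelin membrane protein gene, at -0.49 ± 0.12 (SE, limma adjusted p = 0.020). The median difference of the 12 genes was -0.10, beside 0.004 over all tested HPC genes. The mean signal of the 12 genes ranged from 10.99 to 11.54 in wild-type arrays and from 10.91 to 11.25 in Df(16)A/+ arrays. By run it was 11.06 and 11.14 in Df(16)A/+ (runs 2 and 3) and 11.22 and 11.54 in wild type (runs 2 and 1). Differences of the others ranged up to 0.03 (Mbp, the major myelin protein gene) and included Mog at -0.30 and Aspa at -0.28, which were not called. Of 6 tested genes of oligodendrocyte precursors none was called in either region. In the PFC 3 of the 12 oligodendrocyte genes were called lower (Cnp, Opalin and Aspa), where 15.7% of all tested genes were. Differences of the 12 in the PFC ranged from -0.45 (Opalin) to 0.25 (Mobp, not called). Their median was -0.09, beside -0.04 over all tested PFC genes. The mean signal of the 12 there ranged from 9.80 to 10.13 in wild type and from 9.51 to 10.02 in Df(16)A/+.

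With the mean of the oligodendrocyte genes as a covariate, an alternative chosen after the data were seen, the HPC difference of Erbb3 was -0.37 (limma adjusted p = 0.025). Array by array within genotype, Erbb3 and the oligodendrocyte mean had r = 0.36 and rho = 0.42 in the HPC and r = 0.45 and rho = 0.48 in the PFC (20 arrays each). In permutation tests the p for r was 0.11 in the HPC and 0.0436 in the PFC, and after adjustment over the 6 relations 0.34 and 0.26. The adjusted p for rho was 0.20 in both regions, so neither relation passed. Without the 2 arrays farthest from the median r was 0.42 in the HPC and 0.31 in the PFC. Within runs r was 0.17 over 11 arrays of HPC run 2, 0.72 over 8 arrays of HPC run 3 and 0.25 over 12 arrays of PFC run 4. The rho values were -0.10 in HPC run 2, 0.86 in HPC run 3 and -0.10 in PFC run 4, so the rank relation appeared in HPC run 3 alone.

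Erbb4 encodes the receptor for all neuregulins, and its probe set 1427783_at was tested in the PFC. Its lowest, median and highest signals were 4.38, 4.96 and 5.10 in wild type and 4.65, 5.06 and 5.31 in Df(16)A/+. The groups overlapped, with 9 of 10 Df(16)A/+ arrays above the wild-type mean. The difference was 0.18 ± 0.09 (SE), with an interval from -0.01 to 0.37, and it missed the threshold (limma adjusted p = 0.17). The sign turned in 1 of the 14 alternatives in which it was fitted: with run and chip lot as blocks the difference was -0.06 (limma adjusted p = 0.89). In run 4 the mean was 4.81 over 7 wild-type and 5.00 over 5 Df(16)A/+ arrays. The Df(16)A/+ array of run 3, at 4.88, was below the 3 wild-type arrays of that run, at 4.99 to 5.01. The 6 wild-type PFC arrays of chip lot 2 were all in run 4 and had a mean of 4.77. Within lot 1 the mean was 5.00 over 4 wild-type and 5.04 over 10 Df(16)A/+ arrays.

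In the HPC the Erbb4 probe set was above 4 on 7 of 20 arrays and was not tested. Its lowest, median and highest signals were 3.80, 3.95 and 5.20 in wild type and 3.74, 3.89 and 4.09 in Df(16)A/+. A single wild-type array, replicate 1, gave the value of 5.20, and the next highest was 4.12. Apart from that array both groups lay around the filter value.

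Genes of interneurons, the cells in which Erbb4 is best known, were read on the same arrays. In the PFC 3 of 13 tested genes were called, where 19% of all tested genes were: Gad1, the main GABA-synthesis gene, at 0.11 ± 0.04 (SE, limma adjusted p = 0.038), Cnr1, a cannabinoid receptor gene, at 0.17 ± 0.04 (adjusted p = 0.0034), and Pvalb, the parvalbumin gene, at -0.25 ± 0.08 (adjusted p = 0.027). The mean signal of the 13 ranged from 10.62 to 10.73 in wild-type and from 10.63 to 10.93 in Df(16)A/+ PFC. In the HPC 1 of 13 was called, where 3.66% of all tested genes were, the neuropeptide gene Npy at 0.26 ± 0.06 (adjusted p = 0.0088). In the PFC Erbb4 did not follow the interneuron mean from array to array, with r = 0.04 and rho = -0.01 (adjusted permutation p for r of 0.86). In the HPC r was -0.29 and rho -0.06 (adjusted permutation p for r of 0.47). There Erbb4 was above 4 on 7 of 20 arrays only, so no relation is read from the HPC values. They include wild-type replicate 1 of run 2, with its Erbb4 signal of 5.20 and the lowest interneuron mean of its group. Within runs r was 0.11 in PFC run 4, -0.44 in HPC run 2 and -0.35 in HPC run 3, and without the 2 farthest arrays it was -0.12 in the PFC and -0.14 in the HPC.

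**Figure D3:**
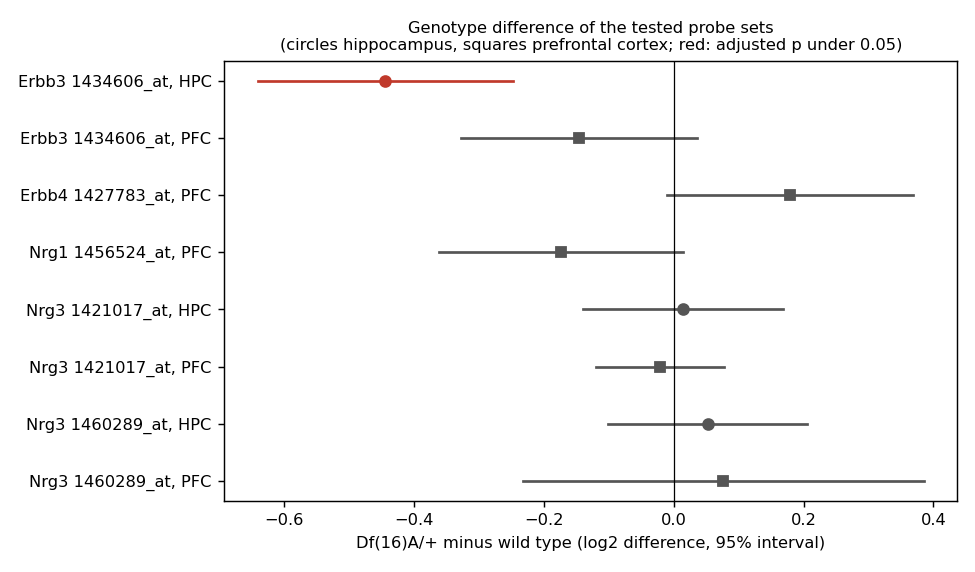
Fitted genotype difference (Df(16)A/+ minus wild type, log2) with its 95% interval for the 8 tested combinations of member probe set and region. The interval of Erbb3 in the HPC, from -0.64 to -0.25, is the only one that leaves out 0, and it alone had an adjusted p under 0.05.

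Whether the genotype difference itself differed between the regions was tested as an interaction over all 40 arrays, for the 5 member probe sets that passed the filter over the 40 arrays. Nrg1 and Erbb4 passed it only through the PFC, since in the HPC Nrg1 was above 4 on 0 and Erbb4 on 7 of 20 arrays, so no region difference is read from them. None of the 5 was called by limma, where 2.53% of all 22586 tested probe sets were. For Erbb3 the HPC difference was lower than the PFC difference by an estimate of -0.30 ± 0.13 (SE, unadjusted p = 0.0291, adjusted p = 0.18). The Nrg3 probe sets, at 0.04 ± 0.09 and -0.02 ± 0.17 (SE), did not pass either. The Erbb3 difference in the hippocampus is thus not shown to differ from that in the prefrontal cortex.

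The regions were compared in wild type by the rank of a probe set within its own array, as a description with no test, because the signal scales differed between regions. Erbb3 1434606_at ranked higher in the hippocampus: it lay between the percentiles 54.6 and 57.1 of its array in the PFC and between 65.8 and 69.6 in the HPC. Nrg1 lay between the percentiles 55.5 and 57.7 in the PFC, while in the HPC its signal was below the filter on every array and its rank there is not that of a measured level. Nrg3 1421017_at also ranked higher in every PFC array, with medians of 85.5 and 81.4. Ranks of Nrg3 1460289_at (medians 61.5 and 58.3) overlapped between the regions through HPC replicate 7 alone, at 59.55 against a lowest PFC percentile of 59.41. Those of Erbb4, near the filter value in the HPC, overlapped through HPC replicate 1 alone, at 59.5 against a lowest PFC percentile of 54.1. Full separation of the regions was common, since 21.1% of probe sets ranked higher in all HPC arrays and 21.7% in all PFC arrays. All 12 oligodendrocyte genes likewise ranked higher in every HPC array, while of 15 interneuron genes 7 had the higher median rank in the PFC and 8 in the HPC. Region and run could not be told apart in wild type, whose PFC arrays were in runs 3 and 4 and whose HPC arrays were in runs 1 and 2.

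**Figure D4:**
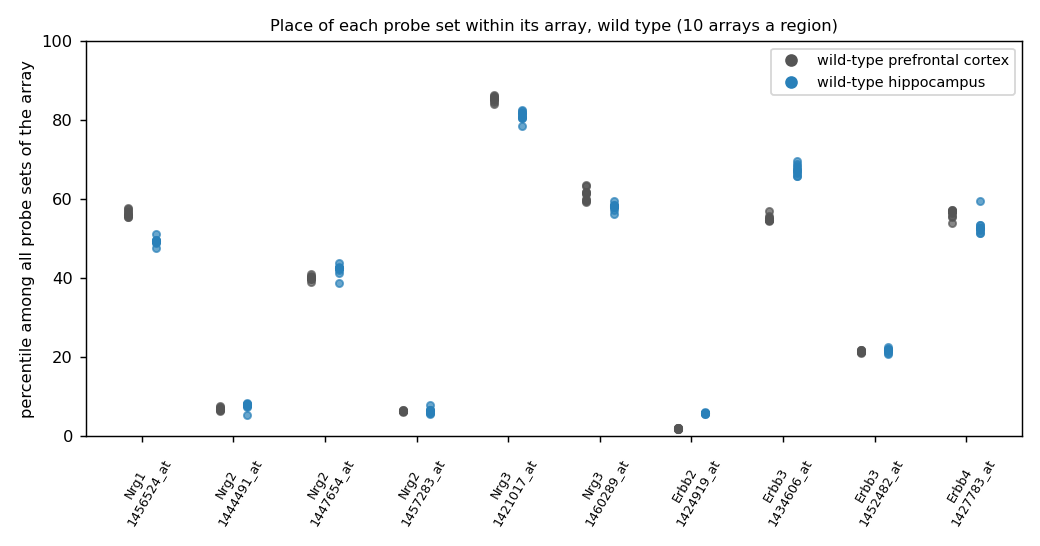
Percentile of each member probe set among all probe sets of the same array, in 10 wild-type PFC and 10 wild-type HPC arrays (1 point per array). Erbb3 1434606_at lies higher in every HPC array and Nrg3 1421017_at in every PFC array. Nrg1 in the HPC and the Nrg2, Erbb2 and second Erbb3 probe sets were below the filter on all arrays shown, and Erbb4 in the HPC was near it.

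Genes that varied most like a member from array to array were taken from 10505 genes, by the lower of the PFC and HPC correlations of deviations from group means over 20 arrays a region. The arrays share runs and normalization, and the values are descriptive. For Nrg3 1421017_at these were Uxs1, an enzyme gene of nucleotide sugar synthesis (r = 0.74 in the PFC and 0.73 in the HPC), Ppp1r7, a phosphatase regulator gene (0.70 and 0.64), and the transcription factor gene Sp3 (0.67 and 0.65). For Erbb3 1434606_at they were Mcl1, a survival gene of the Bcl2 family (0.67 and 0.78), Slc16a1, a monocarboxylate transporter gene (0.64 and 0.70), and Fastkd5, a gene of mitochondrial RNA processing (0.61 and 0.63). The PFC rank correlations of Slc16a1 and Fastkd5 with Erbb3 were lower, 0.21 and 0.28. No member and no gene of the oligodendrocyte list used here was among these 6 genes. The other members did not pass the filter in both regions and were not searched.

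The other genes of the pathway were followed in a list of 56, of which 49 had a probe set. In the PFC 44 were tested, 2 were called higher and 3 lower, and the median difference was -0.0002 beside -0.04 over all tested genes. Over all PFC genes 19% were called, 3.27% higher and 15.7% lower. In the HPC 43 were tested, 3 were called higher and 1 lower, and the median was 0.02 beside 0.004. Over all HPC genes 3.66% were called, 2.11% higher and 1.55% lower. These directions move with scaling: of called PFC probe sets 1286 of 4000 were higher as deposited, 1684 of 3935 after quantile normalization and 896 of 3731 after median centring. The HPC counts were 1098 of 1369, 958 of 1509 and 1232 of 1313.

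Related ligands and Egfr, the founding receptor of the family, were not called in either region. Hbegf, the heparin-binding ligand of EGFR and ERBB4, had a PFC difference of 0.22 ± 0.08 (SE, limma adjusted p = 0.052). Egfr had differences of -0.15 ± 0.09 in the PFC (adjusted p = 0.25) and -0.18 ± 0.07 in the HPC (adjusted p = 0.095). Nrg4, Egf, Ereg, Btc and the transcription factor gene Stat5a were below the filter in both regions. Of 7 tested genes of precursor and receptor cleavage, 1 was called. This was Psenen, a subunit gene of gamma-secretase, which releases the intracellular part of ERBB4. In the PFC it ranged from 10.77 to 11.08 in wild type and from 10.71 to 10.89 in Df(16)A/+, a difference of -0.16 ± 0.04 (SE, adjusted p = 0.0083). In the PFC the sheddase genes Adam10, at 0.004 ± 0.04, and Bace1, at -0.08 ± 0.05, missed the threshold.

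Among intracellular signalling genes, Shc3, a neuronal adaptor gene, was higher in Df(16)A/+ PFC, from 5.21 to 6.53 in wild type and from 6.09 to 7.02 in Df(16)A/+ (0.49 ± 0.14 SE, adjusted p = 0.022). The Shc3 call held when any of the 20 PFC arrays was left out and was lost in 6 of 15 other alternatives. Ptpn11, a phosphatase gene of growth factor signalling, was lower in Df(16)A/+ PFC by a small amount, -0.10 ± 0.03 (adjusted p = 0.035). Its call was lost in 9 of the 20 fits that left out an array. Of the 15 other alternatives 9 lost it, among them quantile normalization (adjusted p = 0.088). Pik3r1, the regulatory subunit gene of a lipid kinase recruited by ERBB3, was higher in Df(16)A/+ HPC, from 8.60 to 9.11 in wild type and from 8.81 to 9.97 in Df(16)A/+ (0.46 ± 0.12 SE, adjusted p = 0.032). This call was lost in 9 of the 20 fits that left out an array. Its probe sets disagreed: the 3 others in the HPC had differences of -0.04, 0.06 and 0.43, none called. In the PFC the probe set with the highest signal had 0.15 (adjusted p = 0.095), while the 3 others, at 0.36, 0.49 and 0.62, were called.

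Erbin, named for its product's binding to ERBB2, was lower in both regions. In the PFC it was at 11.02 ± 0.11 (SD, n = 10) in wild type and 10.85 ± 0.11 in Df(16)A/+, a difference of -0.17 ± 0.05 (SE, limma adjusted p = 0.019). In the HPC it was at 10.89 ± 0.17 and 10.60 ± 0.13, a difference of -0.29 ± 0.07 (SE, adjusted p = 0.017), and in each region 10 of 10 Df(16)A/+ arrays were below the wild-type mean. The PFC call was lost in 6 of 15 alternatives, among them quantile normalization (adjusted p = 0.059). The HPC call was also lost in 6 of 15, among them median centring (adjusted p = 0.071). A second Erbin probe set had differences of -0.23 in the PFC and -0.27 in the HPC, and another, tested in the HPC alone, had -0.02, none of them called. Dlg4, the postsynaptic scaffold gene whose product binds ERBB4, was higher in both, by 0.49 ± 0.09 in the PFC (adjusted p = 0.0015) and 0.72 ± 0.13 in the HPC (adjusted p = 0.0035), and its other probe set was called higher in both as well, at 0.29 and 0.54. Of 11 negative regulators, Usp8 was called in the HPC. It encodes a deubiquitinase that stabilizes the ubiquitin ligase of ERBB3, and it was higher by 0.33 ± 0.07 (adjusted p = 0.0082), while its second probe set, of lower signal, had 0.002 (adjusted p = 0.99). The gene of that ligase, Rnf41, was not called in either region.

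None of the 4 HPC calls of the pathway list was kept with the run as a block, where Dlg4 had a difference of 0.002, Pik3r1 of -0.04, Erbin of -0.08 and Usp8 of 0.21. In the PFC 4 pathway genes were called with the run alone as a block and 1 with the lot alone. None of the 5 PFC calls was kept with run and lot as blocks or within run 4. There the Dlg4 difference was 0.38 and 0.46, and the Erbin difference was -0.10 and -0.18.

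**Figure D5:**
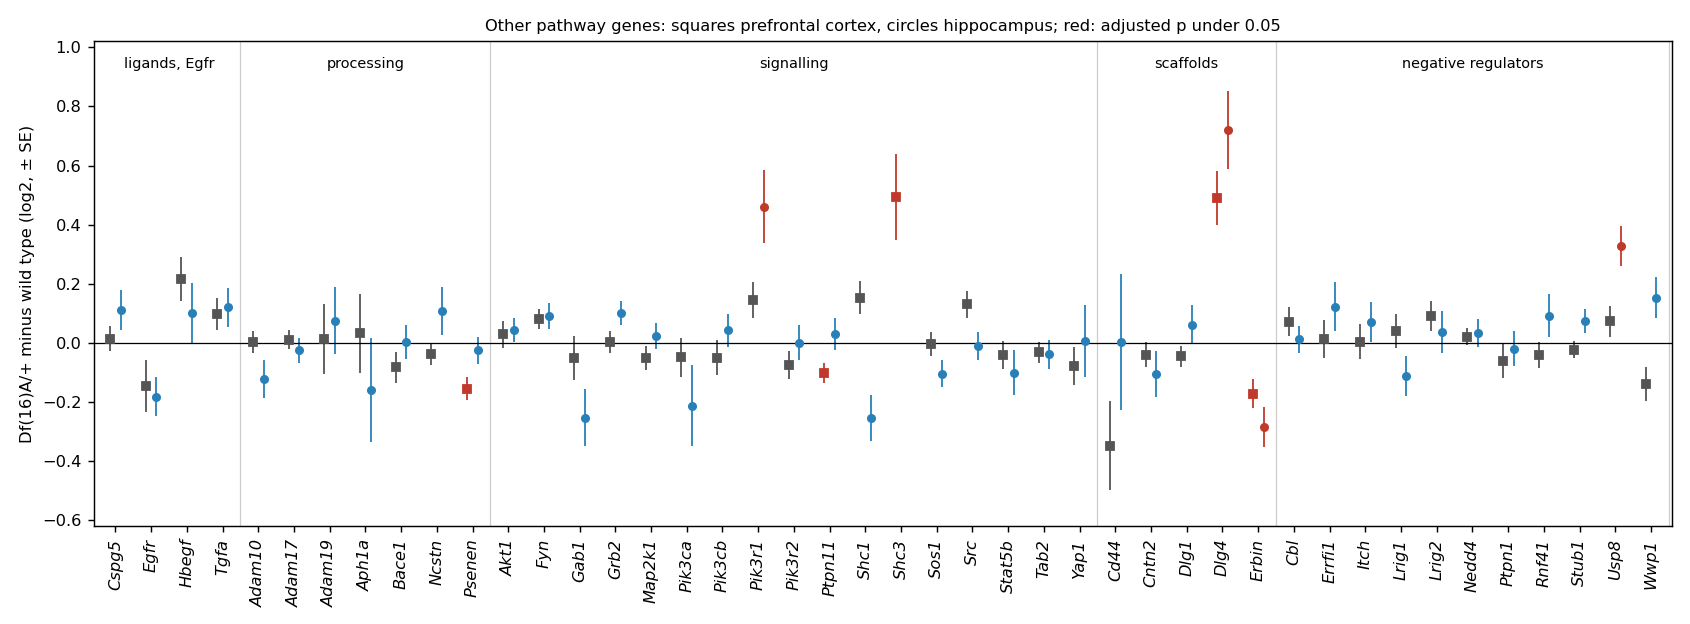
Genotype difference (Df(16)A/+ minus wild type, log2, ± SE) of the tested genes of the pathway list, grouped by role. Squares are the PFC, circles the HPC, and red marks an adjusted p under 0.05. Dlg4 is higher and Erbin lower in both regions, and the remaining red points are called in 1 region.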

How the data were processed

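The deposited values of the authors are log2 signals per probe set, made with GCRMA per the submitters' processing notes. GCRMA's version and settings, and whether all arrays were normalized jointly, were not given in the sources used here. Per array, 95th percentiles were 11.6 to 11.7 in the PFC and 10.9 to 11.1 in the HPC, so each region was fitted on its own. Hybridization runs (gaps over 30 minutes) and chip lots came from the deposited array records, and 2 arrays lacked a scan record.

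Of 45101 probe sets, 64 controls were left out, 34945 were assigned to a single gene, 932 to several and 9160 to none by the array annotation, whose symbols were updated to current ones. Groups came from the sample titles, which call the samples biological replicates. R 4.3.3 and limma 3.58.1 (lmFit, eBayes, two-sided, Benjamini-Hochberg at 0.05) were used, with statmod 1.5.0 and the data.table package (version 1.17.8), and the fit was tested on simulated data. Where a gene needed 1 value, its probe set with the highest mean was used. The number of arrays limits the precision. Permutation tests used 100000 resamples (two-sided).

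Every member probe set, the called genes of the pathway list and the 3 genes most like a member were named. The members and gene lists were chosen with earlier results of these data known. Alternatives were filters, scalings, variance models, array weights, blocks for replicate number, run and lot, single runs and lots, covariates for RNA integrity (beta-actin 3' minus 5' signal) and for oligodendrocyte genes, the mean over probe sets, and leaving out each array. Single lots, the oligodendrocyte covariate and the relation between the Nrg3 probe sets were chosen after seeing the data. No genome coordinates are given, since no source used here names the build behind the annotation.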

Additional observations from a re-analysis of the deposited data

Results flagged for a closer look

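For each member probe set and group of 10 arrays in which at least 1 array was above 4, 18 in all, the highest and the lowest array were set against the rest, and 2 arrays stood apart by Dixon's criterion (gap over range above 0.466). Chance gives about 1 such group in 20. Wild-type PFC replicate 9 had an Erbb3 1434606_at signal of 5.04, with the next highest at 4.72 and a gap of 0.571 of the range. Its mean over 12 oligodendrocyte genes was 10.13, above the 9.80 to 9.99 of the other 9 arrays. The means of its precursor, cortex and hippocampus genes were also above those of all the others, by small amounts, as with 11.14 against 11.04 to 11.13 for the cortex genes. It came from run 4 and chip lot 2. The part of these cells in its Erbb3 signal was not tested.

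Wild-type HPC replicate 1 had an Erbb4 1427783_at signal of 5.20, with the next highest at 4.12 and a gap of 0.769 of the range. The same array was the lowest of its group for Erbb3 1434606_at, at 6.40, and for Nrg3 1421017_at, at 8.24. It was also the highest of its group for 4 probe sets below the filter, as with Erbb2, at 2.11 against 1.92 to 1.98, and Nrg2 1457283_at, at 2.11 against 1.95 to 2.01. The part of such a shift of low values in its Erbb4 signal was not tested. Without it, the HPC difference of Erbb3 was -0.48 and still called (limma adjusted p = 0.0049). Its interneuron mean was 9.80, below the 9.81 to 9.94 of the others, its means of excitatory neuron and precursor genes were below theirs too, and it came from run 2 and chip lot 1.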

How the results depend on the processing

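The Erbb3 call in the HPC was lost with the run as a block (-0.28, limma adjusted p = 0.91), with run and lot (-0.28, 0.65) and within run 2 (-0.28, 0.59), where 0 member probe sets were called. These 3 settings rest on the same contrast, since only run 2 held HPC arrays of both genotypes. In the other 12 alternatives, none of which took out the run, the call held. Their differences were from -0.54 with array weights to -0.37 with the oligodendrocyte covariate, and leaving out an array gave -0.48 to -0.38. PFC members were called in none of the alternatives. HPC probe sets called numbered 812 without a filter, 2335 with array weights, 2928 in 1 fit of 40 arrays, 436 with lot, 33 with run, 38 with both, 31 within run 2, 397 within lot 1, 633 with the beta-actin and 2067 with the oligodendrocyte covariate, and 785 to 2316 when an array was left out. PFC counts were 986 with lot, 2003 with run, 455 with both, 512 within run 4, 329 within lot 1 and 2544 with the oligodendrocyte covariate. Pathway genes called in the PFC numbered 8 after quantile normalization, 4 with run, 1 with lot, and 0 with run and lot and within run 4. They numbered 1 within lot 1, 2 with the oligodendrocyte covariate and 11 as a mean over probe sets. In the HPC they numbered 7 with array weights or 1 fit, 0 with run, run and lot or within run 2, and 2 within lot 1. Interaction calls numbered 298 without a filter, 194 after quantile normalization, 1053 after median centring, 1 with lot within region and 182 to 1286 when an array was left out. The cause of these shifts was not tested.

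Signs turned for differences near 0. PFC Nrg3 1421017_at was 0.0061 after quantile normalization and 0.029 with lot or within lot 1. PFC Nrg3 1460289_at was -0.10 with run, -0.23 with run and lot and -0.021 within run 4, and PFC Erbb4 was -0.061 with run and lot. HPC Nrg3 1421017_at was -0.030 after quantile normalization, -0.023 with run, with run and lot or within run 2, -0.021 with the beta-actin covariate, and -0.030 to 0.057 when an array was left out. HPC Pik3r1 was -0.035 with run, run and lot or within run 2. The interaction of Nrg3 1421017_at was -0.036 after quantile normalization and -0.0085 to 0.079 when an array was left out, and that of Nrg3 1460289_at was 0.047 after median centring and -0.084 to 0.052.

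Of the correlations of same-numbered samples between genotypes, 2 of 10 were over 0.1 in the PFC and 4 of 10 in the HPC. Between regions 4 of 10 were in wild type (median 0.068, against 0.0059 for other numbers) and 5 of 10 in Df(16)A/+ (0.103 against -0.0093). Not every pair was over 0.1, and no label ties the samples, so the main fits did not take the numbers to pair samples. These correlations cannot decide whether equal numbers mark the same animal, since no known pair was at hand to set the limit. With the replicate block 3311 PFC and 1602 HPC probe sets were called, and Erbb3 in the HPC stayed called (-0.44, adjusted p = 0.031). A random replicate block gave 678 interaction calls. Member probe sets below the filter limit what these arrays can show of Nrg2, Erbb2 and, in the HPC, Nrg1 and Erbb4.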
